A study of Saccharomyces cerevisiae with 7 samples.

Results

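The histone genes of budding yeast, Saccharomyces cerevisiae, were followed while a culture used up its glucose, the passage called the diauxic shift. The genes were chosen by symbol as the 8 core histone genes HTA1, HTA2, HTB1, HTB2, HHF1, HHF2, HHT1 and HHT2, the variant gene HTZ1 and the linker gene HHO1. All 10 were found among 5470 genes with a symbol, each with 1 spot and a value on all 7 arrays. Total RNA of the culture was taken at 0, 9.5, 11.5, 13.5, 15.5, 18.5 and 20.5 h, when the culture stood at 0.14, 0.46, 0.80, 1.8, 3.7, 6.9 and 7.3 OD. The medium then held 19, 18.7, 17.6, 14, 7.5, 0.2 and 0 g/L glucose. Each array also held a common reference, RNA of the culture at 0.14 OD with 19 g/L glucose, and at 0 h both channels carry that description. The labels give no strain and do not say whether the samples came from 1 flask. There was 1 array per time point and no replicate, and since each array has its own lot, lot and time cannot be told apart.

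Histones H2A, H2B, H3 and H4, each present in duplicate, form the core of a nucleosome, the spool on which DNA is wound. In budding yeast each core histone is encoded by a pair of genes, and an H2A gene lies beside an H2B gene, or an H3 gene beside an H4 gene, on a shared promoter from which both are transcribed outwards. The mRNAs are made as cells enter S phase and decay outside it, so that histone supply follows DNA replication. HTZ1 encodes H2A.Z, a variant of H2A that the SWR1 complex places beside promoters, and HHO1 encodes the yeast relative of linker histone H1.

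Each value is the log2 ratio of culture to reference less the median of its array. A value of 0 is thus the typical gene of that array, and 1 is a ratio 2-fold above that of the typical gene. The direction of the ratio is likely and not stated by the labels. Turning it would exchange higher and lower throughout. No histone gene has a second spot, so the error of a single value was taken from the 75 genes spotted more than once, as the standard deviation (SD) between spots of one gene. In the order of sampling, from 0 h to 20.5 h, it was 0.21, 0.41, 0.23, 0.19, 0.34, 0.45 and 0.36. Other lists of 7 values follow the same order of arrays. A table of ratios gives no signal level, and in a bulk culture fewer cells in S phase and less histone mRNA per cell cannot be told apart. The 2 gene copies of a core histone are closely alike in their coding sequence, so each spot may also have bound RNA of the other copy, which would shrink a difference between them.

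As a group the core histone genes lay slightly above the median gene while glucose lasted, and their median was lower on the 2 late arrays. Their median over 8 genes was 0.26, 0.29, 0.12, 0.26 and 0.40 on the 5 arrays up to 15.5 h. It was -0.044 on the 18.5 h array and -0.35 on the last. The lower median at 18.5 h depends on the centring: as deposited it was 0.17 there, above the 0.14 of the 11.5 h array, and -0.16 on the last array. All 10 histone genes were lower at 20.5 h than at 15.5 h, where 51.5% of all genes measured on every array were. As deposited 9 of the 10 were, all but HHF2, beside 38.4% of all genes. The 15.5 h array, the baseline here, had the highest core median of the 7. The centred step of HHF2, -0.14, was smaller than the SD between spots of either array. Since copies may share signal, the 10 genes are not independent counts. From 15.5 to 18.5 h 8 of the 10 had the lower value at the later time, beside 50.7% of all genes, and from 18.5 to 20.5 h 6 had, beside 53.5%. The early elevation was already present on the 0 h array, on which both channels have the same label. There all 8 core genes lay above 0, and HHT1 at 0.53, HTB1 at 0.42 and HTB2 at 0.41 ranked at percentiles 99.3, 97.3 and 97.2 of the genes of that array. Measured from the 0 h array, the core median moved by -0.015, -0.077, -0.0040 and 0.19 from 9.5 to 15.5 h, by -0.29 at 18.5 h and by -0.60 at 20.5 h.

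**Figure D1:**
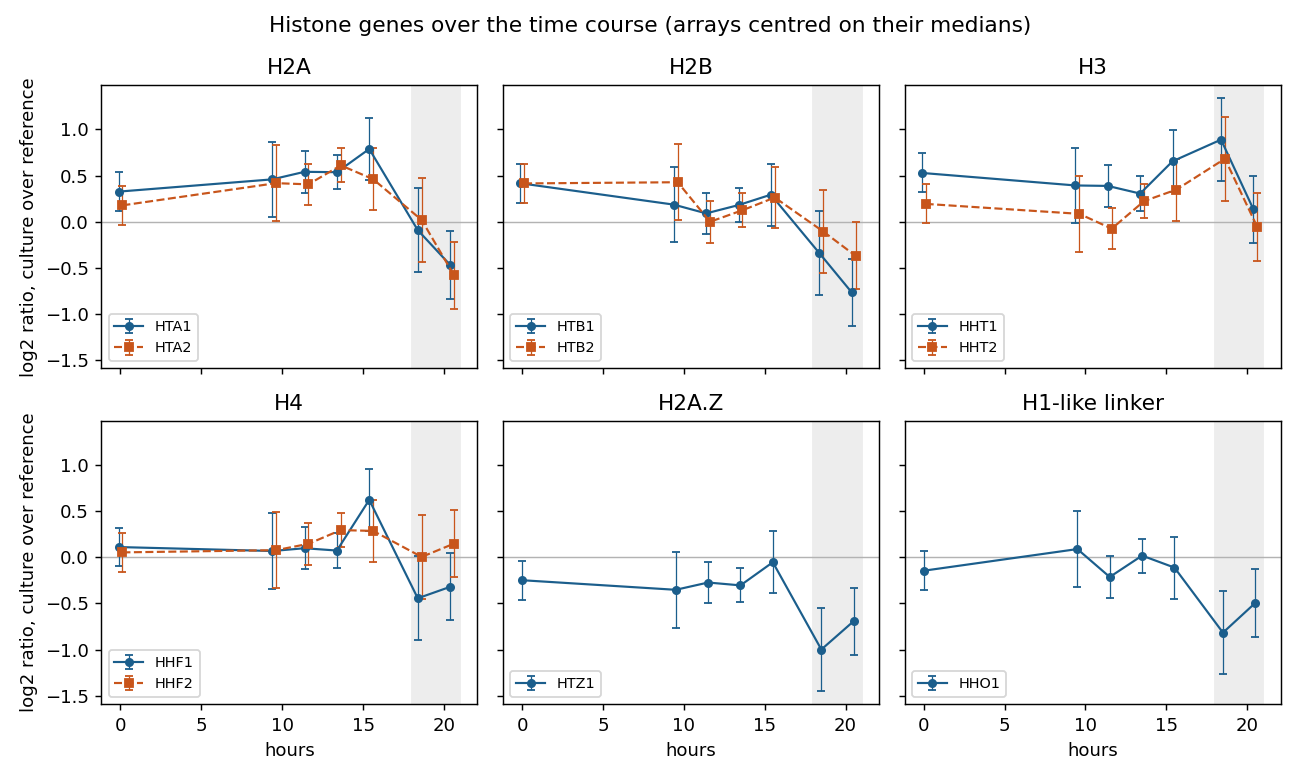
Centred log2 ratio of culture over reference (vertical axis) against hours (horizontal axis) for each histone gene, with error bars of ±1 SD between spots of one gene on that array and the 2 arrays at or below 0.2 g/L glucose shaded. The H2A and H2B genes, HHF1, HTZ1 and HHO1 lie lower on both shaded arrays than on the 5 earlier ones, and HHF2 stays between 0.0050 and 0.30. The H3 genes are highest at 18.5 h, above their 15.5 h values by less than the SD between spots at 18.5 h.

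The H2A genes were lower on both late arrays. HTA1 (YDR225W) had ratios of 0.33, 0.46, 0.54, 0.54 and 0.79 up to 15.5 h, then -0.093 and -0.47. It ranked between percentiles 93.5 and 94.7 of all genes on each of the 5 arrays up to 15.5 h, and at percentile 25.5 at 20.5 h. Its copy HTA2 (YBL003C) had 0.18, 0.42, 0.40, 0.61 and 0.46 up to 15.5 h, then 0.017 and -0.58. In both genes every array up to 15.5 h was higher than both late arrays, except that as deposited HTA2 was at 0.23 at 18.5 h and 0.18 at 0 h.

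Of the H2B genes, whose product pairs with H2A, HTB1 ended lowest of all core genes. HTB1 (YDR224C) had ratios of 0.42, 0.18, 0.089, 0.18 and 0.29 up to 15.5 h, then -0.34 and -0.77. HTB2 (YBL002W) had 0.41, 0.43, -0.0020, 0.12 and 0.26 up to 15.5 h, then -0.11 and -0.37. Both genes were lower on the late arrays than on any earlier one, although for HTB2 the gap between 11.5 h and 18.5 h was smaller than the SD between spots and was turned as deposited, at 0.016 and 0.11.

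Of the H4 genes, the late values of HHF1 were below those of its copy HHF2 by less than the SD of a difference of 2 spots. HHF1 (YBR009C) lay between 0.069 and 0.11 on the 4 arrays up to 13.5 h, was higher at 15.5 h with 0.62, and was at -0.44 and -0.32 on the last 2 arrays. That step of -1.07 from 15.5 to 18.5 h was the largest between those 2 arrays among the 10 genes. HHF2 (YNL030W), which encodes the same protein, had ratios of 0.054, 0.078, 0.15, 0.30, 0.29, 0.0050 and 0.15. Its range over the course, 0.29, was among the smallest of all genes, at percentile 1.08, and its late arrays overlapped the early ones.

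The H3 genes had their highest values at 18.5 h. These lay above the values at 15.5 h by 0.235 for HHT1 and 0.335 for HHT2, less than the SD between spots at 18.5 h. HHT1 (YBR010W) had ratios of 0.53, 0.39, 0.39, 0.30, 0.65, 0.89 and 0.13. HHT2 (YNL031C) had 0.19, 0.084, -0.077, 0.22, 0.35, 0.68 and -0.059. From 18.5 to 20.5 h they differ by -0.76 and -0.74, so that for HHT1 the late arrays lay on either side of all early ones, and for HHT2 the last array lay within the range of the early ones. Each of those steps is less than 2 times the SD between spots at 18.5 h alone, and the value at 20.5 h adds its own error. With 1 array per time neither step was tested.

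HTZ1 lay below all 8 core genes on every array but the last, where HTB1 was lower. HTZ1 (YOL012C) had ratios of -0.25, -0.35, -0.27, -0.30, -0.053, -1.0 and -0.69. HHO1 (YPL127C) had -0.15, 0.090, -0.21, 0.019, -0.11, -0.82 and -0.49. Both were lowest at 18.5 h and partly higher at 20.5 h, by 0.31 and 0.32, whereas all H2A and H2B genes were lower at 20.5 h than at 18.5 h. The steps of HTZ1 and HHO1 are smaller than the SD between spots of either array. Among the H2A and H2B genes only the step of HTA2, -0.60, exceeded the SD at 18.5 h. HTZ1 at 18.5 h was the 1 centred value among the 70 of the histone genes at least 2-fold from the typical gene. It lay at that limit. On that 18.5 h array 11.5% of all genes were at least 2-fold lower and 11.6% at least 2-fold higher. At 20.5 h, where 11.5% of all genes were at least 2-fold lower and 10.8% higher, 0 of the 10 histone genes were. From 0 h to 15.5 h, where 0 histone genes were, the shares of all genes at least 2-fold lower were 0.973%, 1.53%, 0.414%, 0.577% and 2.02%, and those at least 2-fold higher were 0.0367%, 0.498%, 0.603%, 1.55% and 3.44%. These counts depend on the centring. As deposited at 18.5 h, HTZ1 was at -0.784, short of 2-fold, and HHT1 was above 2-fold at 1.105.

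To ask whether the genes changed as glucose was consumed, the centred log2 ratio was regressed on the share of glucose consumed over the 7 arrays, with limma across 4807 genes and Benjamini-Hochberg adjustment. The slope, called the fitted change, is on the log2 scale and spans the use of all the glucose, 19 g/L. By this test HTB1 fell, by 0.76 ± 0.24 (standard error (SE), 7 arrays; limma adjusted p = 0.0311), which is 1.69-fold. The other 9 genes did not pass and 0 rose, while 19.0% of all genes fell and 19.5% rose. With the values as deposited, without centring, 0 of the 10 fell (HTB1 at -0.58 ± 0.22, limma adjusted p = 0.0592), where 14.7% of all genes fell and 25.4% rose. At an unadjusted p under 0.05, 5 of the 10 lay on the falling side and 0 on the rising side, where 23.7% and 24.8% of all genes did. The call of HTB1 was lost without the array of 0 h (limma adjusted p = 0.0937), 9.5 h (0.0536), 13.5 h (0.0558), 18.5 h (0.0729) or 20.5 h (0.172, at a fitted change of -0.47).

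The nearest to passing were HHO1 at -0.57 ± 0.22 (limma adjusted p = 0.0584), HTB2 at -0.50 ± 0.22 (0.0875), HTA1 at -0.66 ± 0.28 (0.0889) and HTA2 at -0.61 ± 0.27 (0.0944). HTZ1 was fitted at -0.50 ± 0.24 (adjusted p = 0.117) and HHF1 at -0.38 ± 0.27 (0.291). The 3 fitted changes nearest 0 were those of HHF2 at -0.0086 ± 0.19, HHT1 at 0.12 ± 0.24 and HHT2 at 0.25 ± 0.24. Their 95% intervals from the limma fit ran from -0.43 to 0.41 for HHF2, from -0.41 to 0.65 for HHT1 and from -0.28 to 0.78 for HHT2. A 2-fold change along the fitted line lies outside all 3. The intervals do not bound changes off that line, such as the high values of HHT1 and HHT2 at 18.5 h. Without the 20.5 h array HHT2 was fitted at 0.59 ± 0.21. The median fitted change of the 8 core genes was -0.44, beside 0.020 over all genes tested.

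The slope depended on the 15.5 h array, which had 60.5% of the glucose gone and was the highest of all for HTA1, HHF1 and HTZ1. Without that array 7 of the 10 fell, among them HTA1 at -0.77 ± 0.21 (limma adjusted p = 0.0131), HHF1 at -0.50 ± 0.17 (0.0359) and HTZ1 at -0.59 ± 0.18 (0.0261), where 22.5% of all genes fell. Leaving out the array on which these genes were highest favours low p-values for a fall, so no conclusion is drawn from these passes. A 2-group fit set the arrays with at most 0.2 g/L glucose against the 5 earlier ones, and 6 of the 10 fell, where 20.6% of all genes did. In it HTA1 fell by 0.81 ± 0.19 (limma adjusted p = 0.00786), HTB1 by 0.79 ± 0.18 (0.00765), HTA2 by 0.70 ± 0.20 (0.0226), HTZ1 by 0.60 ± 0.17 (0.0193), HHO1 by 0.58 ± 0.17 (0.0232) and HHF1 by 0.58 ± 0.20 (0.0408). HTB2 missed the threshold at -0.48 ± 0.18 (adjusted p = 0.0595), and HHF2, HHT1 and HHT2 stood at -0.095 ± 0.16, 0.059 ± 0.22 and 0.16 ± 0.22. Both late arrays lay below all 5 earlier arrays in 7 of the 10 genes, against 27.5% of all genes, and above them in 0, against 25.0%. As deposited the first count was 5, without HTA2 and HTB2, against 19.2% of all genes.

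**Figure D2:**
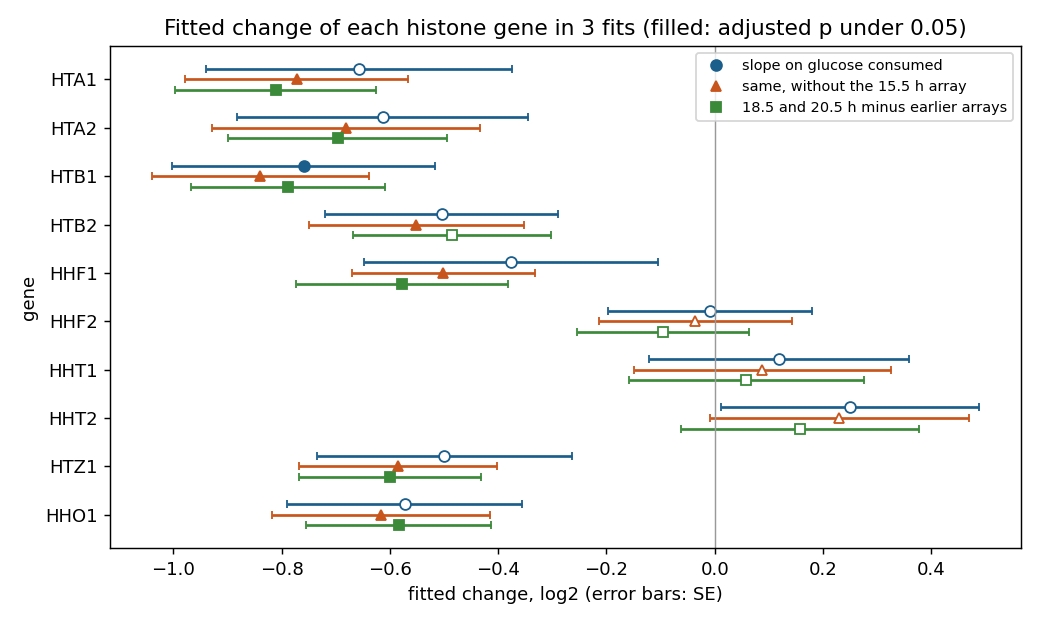
Fitted log2 change with its standard error (horizontal axis) for each of the 10 genes in 3 fits, with filled symbols where the limma adjusted p is under 0.05. In the slope on glucose over 7 arrays HTB1 alone is filled, without the 15.5 h array 7 genes are, and in the 2-group fit 6 are. HHF2, HHT1 and HHT2 lie near 0 and are open in each.

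Copies of the same histone were compared within arrays, where the centring cancels. HTA1 minus HTA2 lay between -0.11 and 0.33, HTB1 minus HTB2 between -0.40 and 0.091, and HHT1 minus HHT2 between 0.082 and 0.46. HHT1 had the higher ratio to the reference on 7 of 7 arrays, which does not compare amounts of mRNA. The difference was already 0.34 on the 0 h array, on which both channels have the same label. HHF1 minus HHF2 was 0.058, -0.0090, -0.048 and -0.22 up to 13.5 h, 0.34 on the 15.5 h array and then -0.45 and -0.47, a change of sign between 15.5 and 18.5 h that is the widest swing of the 4 pairs. Both late differences are smaller than the SD of a difference of 2 spots, which was 0.64 at 18.5 h and 0.52 at 20.5 h. Its slope on glucose consumed was -0.37 ± 0.24 (exact two-sided permutation test over 7 arrays, p = 0.182, adjusted p = 0.547 over 6 differences). Without the 15.5 h array, which held the highest difference, it was -0.47 ± 0.054 (exact permutation test, adjusted p = 0.00833). It did not pass with any other array left out. Leaving out the array farthest from the trend favours a low p-value, so no conclusion is drawn from it. The slopes of the other copies were -0.044 ± 0.15 for H2A, -0.25 ± 0.15 for H2B and -0.13 ± 0.11 for H3, with raw exact permutation p-values of 0.775, 0.168 and 0.285 and adjusted values of 0.775, 0.547 and 0.570.

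The variant H2A.Z was set against both H2A genes in the same way. HTZ1 lay below HTA1 and HTA2 on 7 of 7 arrays, with a median difference of -0.81 from HTA1 and -0.68 from HTA2. The difference from HTA1 was -0.57 on the 0 h array, on which both channels have the same label. It was between -0.91 and -0.81 from 9.5 to 18.5 h, and -0.22 on the last array. Slopes on glucose consumed were 0.16 ± 0.23 and 0.11 ± 0.31 (exact permutation p = 0.627 and 0.734, both adjusted to 0.775). A level difference between spots of 2 genes compares their ratios to the reference, not their amounts of mRNA.

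Genes that share a promoter were then compared, in 4 pairs chosen after the values were seen. In the reference annotation each pair is adjacent and runs outwards from the space between its genes. HTA1 minus HTB1 ranged from -0.091 to 0.50 and HTA2 minus HTB2 from -0.24 to 0.49, and both members of each pair were lower on the late arrays. The H3 and H4 neighbours were farthest apart at 18.5 h. HHT1 minus HHF1 was 0.42, 0.32, 0.29, 0.23 and 0.030 up to 15.5 h, then 1.33 and 0.45. HHT2 minus HHF2 was 0.14, 0.0060, -0.22, -0.074 and 0.060 up to 15.5 h, then 0.68 and -0.21. At 18.5 h the first of these differences was just above 2 times the SD of 0.64 and the second just above that SD. Neighbours of H2A and H2B also exceeded the SD on some arrays. At 13.5 h, with an SD of 0.26, HTA1 minus HTB1 was 0.36 and HTA2 minus HTB2 was 0.49. No slope on glucose consumed passed. Slopes of the H3 and H4 neighbours were 0.49 ± 0.36 and 0.26 ± 0.29 (exact permutation test, adjusted p = 0.70 over 4 pairs for both). Those of the H2A and H2B neighbours were 0.10 ± 0.19 and -0.11 ± 0.28 (same test, adjusted p = 0.70).

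**Figure D3:**
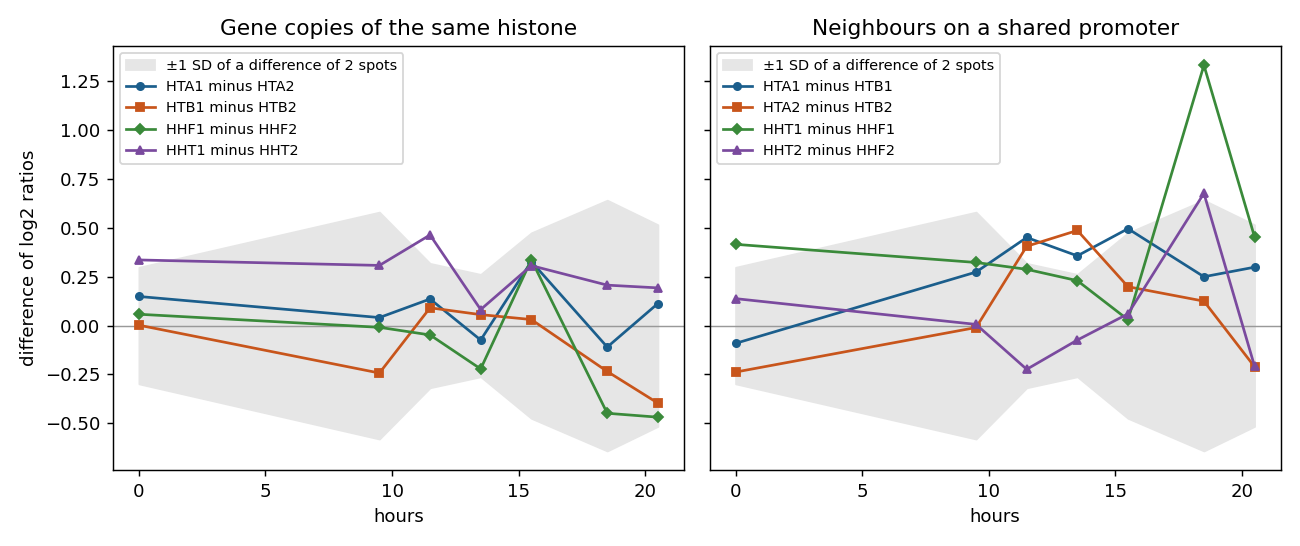
Difference of log2 ratios within each array (vertical axis) against hours (horizontal axis) for copies of the same histone and for neighbours on a shared promoter, with ±1 SD of a difference of 2 spots in grey. HHT1 minus HHF1 reaches 1.33 at 18.5 h, and HHF1 minus HHF2 goes from 0.34 at 15.5 h to -0.45 at 18.5 h. The first of these lies outside the grey band, as do other points. Among them are HTA2 minus HTB2 at 13.5 h and HHT1 minus HHT2 at 11.5 h.

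Across the 7 arrays, as a description, copies of one histone had Pearson's r of 0.94 for H2A, 0.92 for H2B, 0.89 for H3 and 0.63 for H4. Neighbours on a promoter had r of 0.90 for HTA1 with HTB1, 0.71 for HTA2 with HTB2, 0.033 for HHT1 with HHF1 and -0.21 for HHT2 with HHF2. Over all 28 pairs of core genes the median was 0.32. The copies share sequence that can bind each other's RNA, and the part of that in these correlations was not tested. HTZ1 had r of 0.94 with HHF1 and 0.86 with HHO1.

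The genes most like the mean of the 8 core genes, by Pearson's r over 7 arrays among 3341 genes with at least its range, were PYP1 at 0.99, CCS1 at 0.99, RPL42A at 0.98, CDC12 at 0.98 and RFA1 at 0.98. CCS1 encodes the copper chaperone of superoxide dismutase, RPL42A a ribosomal protein, CDC12 a septin of the bud neck and RFA1 the large subunit of the single-strand DNA binding protein used in replication. With 7 points such values are common, and 132 genes had r above 0.9. Closest to HTZ1 were CPR7, a cyclophilin gene, at 0.99, PMT2, a protein mannosyltransferase gene, at 0.97 and NHA1, a sodium and proton antiporter gene, at 0.97. Closest to HHO1 were YAR010C and YBL113C at 0.99 and 0.98 and PCL1, a G1 cyclin gene, at 0.98.

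Genes that act in S phase and at its start were set beside the histone genes. Of 17 measured, 5 fell and 0 rose in the trend with glucose (limma, adjusted over all genes, of which 19.0% fell), and 8 and 0 did at an unadjusted p under 0.05, beside 23.7% and 24.8% of all genes. The median fitted change of the list was -0.56. RNR1, the large subunit of ribonucleotide reductase, fell by 1.72 ± 0.23 (limma adjusted p = 5.02e-04), and so did POL30, the replication clamp PCNA (-1.2 ± 0.27, adjusted p = 0.00652), and CLN2, a G1 cyclin (-1.14 ± 0.34, 0.0241). RNR1 had ratios of -0.46, -1.80 and -1.22 on the last 3 arrays, below every histone gene on each of these arrays. The call of CLN2 was lost without the array of 0 h (adjusted p = 0.0718), 9.5 h (0.0667) or 20.5 h (0.158). It was also lost as deposited (limma adjusted p = 0.0548), with hours in place of glucose (0.0603) and in the 2-group fit (0.0756). Without both the 0 h and 9.5 h arrays the calls of CLN2 (0.260) and POL30 (0.105) were lost, and with hours that of RNR1 was (0.0555). The count fallen was 2 without the 0 h array, 3 without the 9.5, 18.5 or 20.5 h array and 9 without the 15.5 h array.

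Among regulators that switch histone transcription on or off, 1 of 10 measured passed. Over all genes 19.0% fell and 19.5% rose, and 23.7% and 24.8% did so unadjusted. RTT106, a histone chaperone that takes part in repressing histone genes, fell by 0.88 ± 0.21 (limma adjusted p = 0.00909), and 0 rose. The call of RTT106 was lost without the 18.5 h array (limma adjusted p = 0.0573) and without the 0 h and 9.5 h arrays (0.108). With hours (0.100) or log2 OD (0.0538) in place of glucose it was lost too. The count at an unadjusted p under 0.05 was 1 down and 0 up. HPC2 and HIR3, subunits of the HIR corepressor, were at -0.51 ± 0.30 and -0.36 ± 0.21 and did not pass in that fit. In the 2-group fit HIR3 fell (-0.45 ± 0.16, limma adjusted p = 0.0474). There 2 of the 10 regulators fell, beside 20.6% of all genes. Of 7 genes for decay of histone mRNA or removal of surplus histones, RRP6, a nuclear exosome nuclease, fell by 1.17 ± 0.26 (adjusted p = 0.00573), and 0 rose, with 2 down and 0 up unadjusted, beside the same shares of all genes. The call of RRP6 was lost in the 2-group fit (-0.73, adjusted p = 0.110) and without the 0 h and 9.5 h arrays (0.112). PAP2, a poly(A) polymerase that works with the exosome, was at -0.62 ± 0.24 and passed when the array of 13.5 h or of 15.5 h was left out (adjusted p = 0.0341 and 0.0412). PSH1, a ubiquitin ligase, was at 0.58 ± 0.30 and passed without the 11.5 h array (0.0395).

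Proteins that carry and deposit histones were the next group. Of 13 measured chaperone and assembly genes, SCM3, the chaperone of the centromeric H3 variant, rose by 0.88 ± 0.25 (limma adjusted p = 0.0196) and 0 fell, against 3 and 1 unadjusted. Of all genes 19.5% rose and 19.0% fell, and 24.8% and 23.7% did so unadjusted. The value of SCM3 was 1.09 at 18.5 h and at most 0.28 on the other arrays, and its call was lost without the 18.5 h array (adjusted p = 0.121). So it was with hours (0.177), with log2 OD (0.0885) and without the 0 h and 9.5 h arrays (0.124). CAC2, a subunit of chromatin assembly factor 1, was at 0.95 ± 0.37 and NAP1, an H2A and H2B chaperone, at 0.86 ± 0.31, and neither passed in that fit. Both passed without the 11.5 h array (adjusted p = 0.00646 and 0.00594) and with the values as deposited (0.0389 and 0.0277), where 3 genes of the list rose. Of 13 genes of the SWR1 complex and the H2A.Z chaperone CHZ1, 0 passed in limma, with 1 down and 3 up unadjusted, beside the same shares of all genes. The largest fitted changes were VPS71 at 0.59 ± 0.25, RVB1 at -0.52 ± 0.23 and CHZ1 at 0.44 ± 0.20. In the 2-group fit VPS71 rose (adjusted p = 0.0115) and RVB1 fell (0.0273), as they did without the 15.5 h array (0.00862 and 0.0425). They did so too with centring within runs of 40 probe IDs (0.0254 and 0.0283). As deposited 2 of the 13 rose, CHZ1 among them (limma adjusted p = 0.0376), beside 25.4% of all genes. Of 4 genes of HMG-box DNA-bending proteins 0 passed, and 0 did so unadjusted, against 38.5% and 48.5% of all genes in either direction, with NHP6B at -0.38 ± 0.23, HMO1 at -0.33 ± 0.21 and NHP6A at 0.16 ± 0.20.

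**Figure D4:**
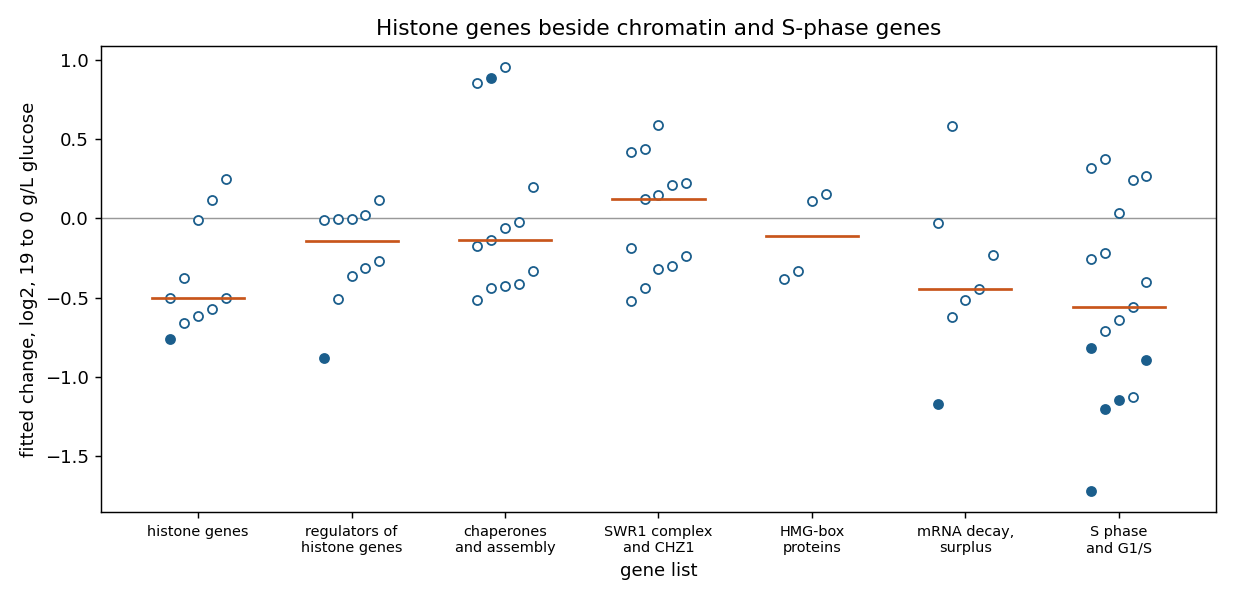
Fitted log2 change over the use of all glucose (vertical axis) of each measured gene in the histone group and 6 lists, filled where the limma adjusted p is under 0.05, with each group's median as a line. Filled genes are HTB1, 5 S-phase genes, RTT106, RRP6 and SCM3, and the S-phase list reaches -1.72.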

How the data were processed

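The deposited table holds log2 ratios of the 2 channels for 6400 probes on 7 arrays. Per the labels, ScanAlyze version 2.41 was the software. The sources used here do not give the authors' background correction, dye normalization, centring or reason for blanks. The log base was read from the values: 76 lay at the 23 places of log2 ratios of whole numbers up to 12 that are at least 2, against 46.5 at neighbouring places, and 120 against 116 for the natural log and 561 against 584 for log10. The direction, culture over reference, follows the channel order in the labels. With it 115 ribosomal protein genes had a median of -1.93 at 20.5 h, which is no independent evidence. The lowest correlation between 2 arrays over all probes was -0.28, between 0 h and 18.5 h.

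Of the probes 5548 had 1 gene symbol, 0 several and 852 none, and all 5548 matched a RefSeq table of assembly R64 by gene ID, from which gene neighbours were taken. Arrays held 6048 to 6342 values, with medians of -0.033 to 0.216 that were subtracted. Spots of one gene were averaged, and 4807 genes with values on all 7 arrays were tested by lmFit and eBayes of limma 3.58.1 (R 4.3.3; 5 residual and 5.46 prior degrees of freedom), checked on simulated data. The 7 arrays are 1 series in time, so p-values measure scatter about a line, not the spread between cultures, and neighbouring arrays need not be independent. Differences were tested over all 5040 orderings of the arrays. Members, lists and tests were chosen with earlier results of these data known. Named genes were all 10 histone genes, the 3 largest fitted changes of each list, and the 5 genes most like the core mean and 3 each most like HTZ1 and HHO1. Alternatives are in the closing section.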

Additional observations from a re-analysis of the deposited data

How the results depend on the processing

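The number of the 10 histone genes that fell, 1 in the reported fit, was 0 with the values as deposited, 4 with centring within runs of 40 probe IDs, 0 with hours, 0 with log2 OD, 6 with the 2-group fit and 0 without the 0 h and 9.5 h arrays. It ranged from 0 to 7 when 1 array was left out, and 0 rose in every one of the 16 alternatives. The 5 S-phase genes that fell became 3 as deposited, 1 with hours, 8 with the 2-group fit and 2 without the 0 h and 9.5 h arrays, and 2 to 9 with 1 array left out. As deposited, 0 histone genes were 2-fold lower and 1 (HHT1) 2-fold higher at 18.5 h. Measured from the 0 h array, 0 were 2-fold lower at 18.5 h and 1 (HTB1) at 20.5 h.

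HTA1, HTA2, HTB1, HTB2, HHF1, HTZ1 and HHO1 had a fitted change below 0 in all 16 alternatives. HTB1 passed in 7 of them, HTA1, HTZ1 and HHO1 in 3 each, HTA2 and HHF1 in 2 each, HTB2 in 1 and the other genes in 0. In 3 of the 16 the fitted change of a histone gene could not move. These used the first spot, genes with values on at least 5 arrays, or robust eBayes. HTB1 stood at -0.76 in each (limma adjusted p = 0.0313, 0.0321 and 0.0305), so these passes add little to its call. Its other passes were with centring within runs of 40 probe IDs, in the 2-group fit and without 11.5 h or 15.5 h. HHF2 turned to 0.17 as deposited, 0.082 with hours, 0.073 with log2 OD, 0.015 without 13.5 h and 0.10 without 18.5 h. HHT1 turned to -0.015 with hours and -0.17 without 18.5 h, HHT2 to -0.033 without 18.5 h, and NHP6A to -0.021 without 20.5 h. With 1 array left out, HHF2 ranged from -0.056 to 0.10, HHT1 from -0.17 to 0.46, HHT2 from -0.033 to 0.59 and NHP6A from -0.021 to 0.29. None of these was called before or after.

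Among the differences, HTZ1 minus HTA2 turned to -0.015 with hours, -0.0021 with log2 OD and -0.28 without 20.5 h, HTZ1 minus HTA1 to -0.19 without 20.5 h, and HTA1 minus HTA2 to 0.095 without 18.5 h. With 1 array left out they ranged from -0.28 to 0.49, from -0.19 to 0.39 and from -0.091 to 0.095. HHF1 minus HHF2 lay between -0.47 and -0.25 with 1 array left out and passed only without 15.5 h. The cause of these moves was not tested. No paired analysis was possible because each time point is 1 array. Spot intensities were not used here, so no filter on dim spots could be tried.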
